A study of Arabidopsis thaliana with 12 samples.

Results

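The genes described here are 10 loci of light and shade signalling, taken by their identifiers, with earlier results of these data known. They are 5 PHYTOCHROME-INTERACTING FACTOR genes, PIF1 (AT2G20180), PIF3 (AT1G09530), PIF4 (AT2G43010), PIF5 (AT3G59060) and PIF7 (AT5G61270), the shade marker genes PIL1 (AT2G46970), HFR1 (AT1G02340) and ATHB2 (AT4G16780), and HY5 (AT5G11260) with its homologue HYH (AT3G17609). Of these 10 genes, 4 were called different between light regimes in at least 1 comparison, and the other 6 were listed in no table. The 4 deposited tables together listed 6520 distinct loci.

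Leaf polyadenylated RNA of Arabidopsis thaliana Col-0 was sequenced in 12 libraries, 3 for each of 4 growth light regimes, from plants acclimated for 22 days per the series' design text. In the square regimes SQH (high intensity) and SQL (low intensity) the lamp was held at a single level for the whole day. In the fluctuating regimes FLH (high) and FLL (low) the lamp followed a natural record of daylight, FLL being a dimmed copy of FLH, and the square and fluctuating regimes of one intensity gave equal light per day. All plants were untreated wild type raised from seed of a single parent and kept well watered. The temperature was 22 °C per the labels, while the study's methods give lower day and night values under the regime lamps. The study allows that the lamp spectrum may have shifted with intensity. A change in the ratio of red to far-red light therefore cannot be told apart from the regimes.

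The purpose of the study was to learn whether light-pattern acclimation alters gene expression together with DNA methylation, and 4 comparisons were deposited. SQH with SQL and FLH with FLL change the intensity, and SQH with FLH and SQL with FLL change the pattern of light. A gene is called here where the authors' DESeq2 test gave an adjusted p no larger than 0.05 with a log2 fold change of 0.5 or more in either direction. The tables hold called genes only. Each row has the mean normalised count over all 12 libraries, the log2 fold change and the standard error (SE) of that change. Positive values are read here as higher in the first-named regime, which the SEs require. The labels in the study's own plots and its text on the gene MCCA take the sign the other way, and under that reading every direction given here turns. Its text on the expression of transposable elements reads the sign as here. Values per library were not used, so the spread between libraries enters through the SE alone. The depth of the libraries is not in the tables. All FLL libraries and 1 SQL library stand apart from the others in the alignment statistics of the study, and in comparisons with FLL the regime and this split cannot be told apart. Of 3 leaf genes used as a check, RCA (Rubisco activase) was listed, with a mean normalised count of 503060, and it moved as HY5 did, by 1.63 ± 0.48 (SE) in SQH with FLH and -1.83 ± 0.48 in FLH with FLL at adjusted p of 0.00541 and 0.00373, while RBCS1A and LHCB1.3 were not listed, and tables of called genes cannot show whether a marker was detected.

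PIF proteins are basic helix-loop-helix (bHLH) transcription factors that accumulate in darkness and shade and promote elongation. Light-activated phytochrome B binds them and most are then degraded. HY5 is a basic leucine zipper factor that promotes greening and flavonoid synthesis in light, and in darkness it is degraded through the COP1 and SPA proteins. PIF and HY5 proteins both bind the G-box, the DNA element CACGTG, and related elements with an ACGT core. PIL1, HFR1 and ATHB2 are rapidly induced by shade, and HFR1 and PIL1 proteins hold PIFs back by pairing with them.

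Matches to 2 of these elements upstream of the called genes are shown first, because they are the sequences these factors are known to bind. The 2000 bases before each annotated transcript start were searched on both strands in the TAIR10.1 genome for the G-box CACGTG and for the related T/G-box CACGTT, whose reverse complement is AACGTG. Both hold the ACGT core, and a G-box cannot also be a T/G-box. Each line gives the gene, the distance of the first base of the match from the start, and the sequence 5′ to 3′ on the strand of the gene, with the match in capitals.
PIF4, T/G-box 153 bases upstream, chr2:17885936-17885965, plus strand: ccctttcaatgcAACGTGataaacgccaaa
HFR1, G-box 1419 bases upstream, chr1:469282-469311, minus strand: tcacgagggcatCACGTGaacacgcctttt
HFR1, G-box 1000 bases upstream, chr1:468863-468892, minus strand: gagcccacaaccCACGTGggattttggata
HY5, T/G-box 9 bases upstream, chr5:3595074-3595094, minus strand: ctaaaatccaccCACGTTcca
HYH, T/G-box 1221 bases upstream, chr3:6022611-6022640, plus strand: tactcctaaattAACGTGgcatgttcatgc
HYH, T/G-box 1178 bases upstream, chr3:6022654-6022683, plus strand: caatcatatctcCACGTTtgcatacagctt
PIL1, G-box 1222 bases upstream, chr2:19299063-19299092, minus strand: tcacgcggcattCACGTGaagtgcacgtga
PIL1, G-box 1211 bases upstream, chr2:19299052-19299081, minus strand: tcacgtgaagtgCACGTGaacttggccaaa
PIL1, G-box 1093 bases upstream, chr2:19298934-19298963, minus strand: gttctttccgctCACGTGggccttttgtgc

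PIL1 is shown as the gene with the most G-boxes of the 10, although no table listed it, and its first 2 windows overlap. HFR1 held 2 G-boxes, PIL1 3, PIF5 1 and PIF7 1, and the other 6 genes held none. A G-box was found in 23.8% of the 27435 protein-coding windows of this length, and at least 2 in 5.49%. The T/G-box, present in 41.0% of all windows, was matched once in PIF4 and HY5 and 2 times each in HYH and PIL1. The HY5 match lies so near the annotated start that its window is shorter than the others. The ACGT core by itself occurred in 96.8% of all windows, and PIF1 was the only gene of the 10 with none. The elements GATTCG and GATACG, bound by the clock protein LUX and present in 48.5% and 30.4% of windows, had no match in PIF4, while PIF5 held 2 and 1. These are matches of letters and were not tested as binding sites.

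**Figure D1:**
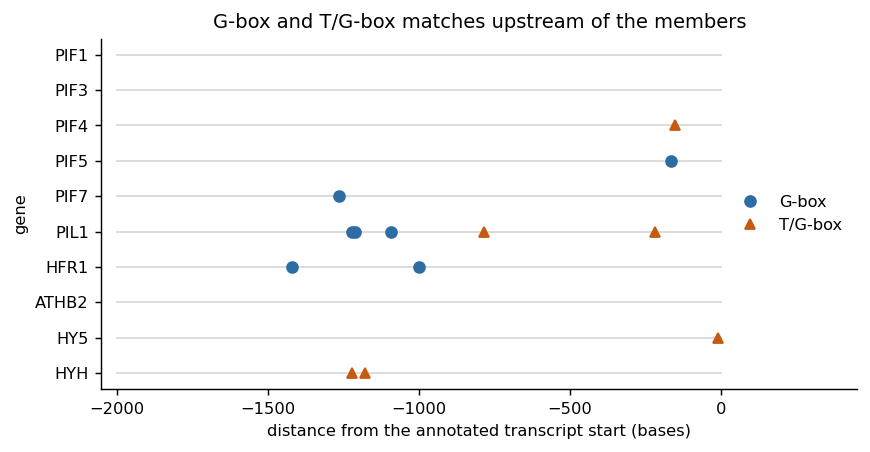
Positions of G-box (CACGTG, circles) and T/G-box (CACGTT, triangles) matches on either strand in the 2000 bases upstream of the 10 genes, with the distance from the annotated transcript start in bases on the horizontal axis. PIL1 and HFR1 carry 3 and 2 G-boxes, and HY5 and HYH carry T/G-boxes only.

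Most of the differences in these genes were between square and fluctuating light at high intensity. In SQH with FLH, 4 of the 10 genes were called, PIF4 and HFR1 higher in FLH and HY5 and HYH higher in SQH. In that comparison 22.2% of the 20865 genes tested were called, 12.1% higher in FLH and 10.1% higher in SQH. In FLH with FLL, HY5 alone of the 10 was called, higher in FLL, where 9.89% of all genes tested were called and 4.51% were higher in FLL. None of the 10 was called in SQH with SQL, with 3.11% of 21349 genes tested called, or in SQL with FLL, with 8.20% called. For these counts of 0 the number at an unadjusted p under 0.05 cannot be given, since the largest p listed in those DESeq2 tables was 0.00155 and 0.00411. The calls amount to 40% of the 10 genes in SQH with FLH and 10% in FLH with FLL, beside 22.2% and 9.89% of all genes, and no test of the list was made.

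**Figure D2:**
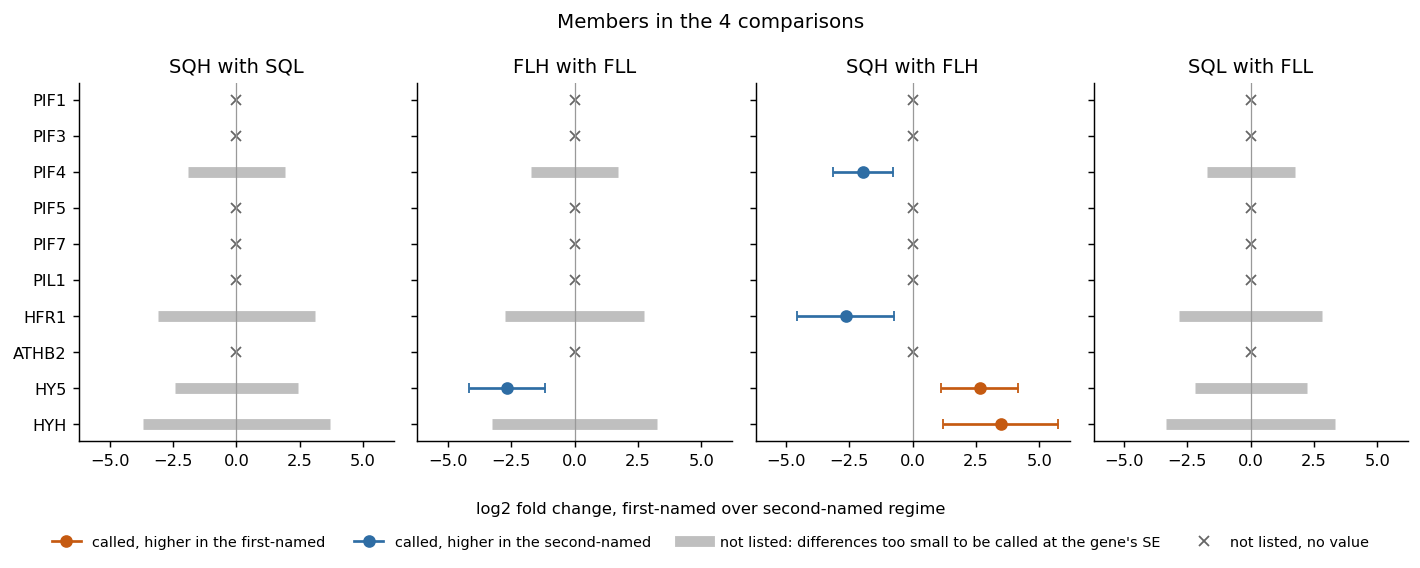
Log2 fold changes of the 10 genes in the 4 comparisons, first-named over second-named regime, with 95% intervals for called genes (orange, higher in the first-named regime, and blue, higher in the second-named). Grey bars span the differences that would have been too small to be called at the gene's SE, and crosses mark genes with no listed value, not a difference of 0. The called values lie in SQH with FLH (PIF4, HFR1, HY5 and HYH) and in FLH with FLL (HY5).

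Of the 5 PIF genes among the 10, only PIF4 was listed. PIF4 promotes elongation in shade and warmth, and its transcript is under clock control. Its mean normalised count over all libraries was 4501. In SQH with FLH the log2 fold change was -1.96 ± 0.60 (SE), which is 3.89-fold higher in FLH with a 95% interval of 1.71 to 8.84, at an adjusted p of 0.00909 in the authors' test. PIF4 ranked 2729 of 4635 by p in this table, so it was not among the best supported changes. If both regimes have one spread, this SE implies a coefficient of variation between libraries, counting noise included, of 51.3%.

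PIF4 was not listed in the other comparisons, which does not show that it was unchanged there. At its SE a log2 difference of 1.91 would have been needed in SQH with SQL, 1.70 in FLH with FLL and 1.73 in SQL with FLL. The SE of a gene hardly differed between tables, the larger SE being 1.01 times the smaller at the 90th percentile of genes listed in several. Differences around the loop of 4 regimes must close. In PIF4 the log2 differences SQH minus SQL, SQL minus FLL and FLL minus FLH must therefore add to -1.96. If none of these reached the size needed for a call and the listed fold change is taken as exact, the mean of PIF4 lay between 851 and 2792 normalised counts in SQH and between 3312 and 10861 in FLH.

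PIF1, PIF3, PIF5 and PIF7 were listed in no comparison. PIF1 represses seed germination and greening, PIF3 was the first phytochrome partner found, PIF5 acts with PIF4 in elongation, and PIF7 is required for responses to shade. With no row there is no mean, fold change or SE for them, and a gene with the median SE of listed genes would have needed a log2 difference between 1.25 in SQH with FLH and 1.73 in SQH with SQL to be called. PIF1 overlaps the neighbouring gene AT2G20170 by 334 bases and PIF7 overlaps AT5G61260 by 318 bases on the opposite strand in TAIR10.1, and whether reads were counted by strand is not given in the sources used here.

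Of the shade markers, HFR1 was called and PIL1 and ATHB2 were not listed. HFR1 had a mean normalised count of 206. It was higher in FLH than in SQH, with a log2 fold change of -2.64 ± 0.98 (SE) and an adjusted p of 0.0359 from DESeq2. This is 6.23-fold with a 95% interval of 1.64 to 23.6. HFR1 ranked 4136 of 4635 by p and its SE was among the largest 9.17% of the table, so it was one of the less certain calls. The implied coefficient of variation between libraries was 83.3%.

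HFR1 held 2 upstream G-boxes and PIL1 held 3. PIL1 was not listed, so whether it changed is not known, and G-box matches cannot be set against changes here. A log2 difference of 3.11 in SQH with SQL, 2.76 in FLH with FLL and 2.82 in SQL with FLL would have been needed for a call of HFR1, which is more than the change seen in SQH with FLH in each case. Under the same bounds as for PIF4, the mean of HFR1 lay between 14.2 and 99.3 normalised counts in SQH and between 88.4 and 619 in FLH, and these ranges overlap although the ratio of the 2 means is fixed. ATHB2, a homeodomain-leucine zipper gene used as a classical marker of shade, and PIL1, a bHLH factor related to the PIFs, had no values to compare.

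HY5 was the only gene of the 10 listed in more than 1 table, and it was low in FLH. Its mean normalised count was 536. HY5 was 6.24-fold higher in SQH than in FLH, with a log2 fold change of 2.64 ± 0.77 (SE), a 95% interval of the fold of 2.19 to 17.7 and an adjusted p of 0.00532. It was also higher in FLL than in FLH by 6.35-fold, with a log2 fold change of -2.67 ± 0.77 (SE), an interval of 2.23 to 18.0 and an adjusted p of 0.0113, both from the authors' DESeq2 test. The 2 comparisons share the FLH libraries, so they are not separate evidence that FLH was low.

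From these values SQH and FLL differed by -0.02 on the log2 scale. The SE of this difference was at most 1.09 and estimated at 0.77, so a difference of 1 in either direction lies within the error, and equal levels are not shown. HY5 ranked 2328 of 4635 by p in SQH with FLH and 970 of 2063 in FLH with FLL. The implied coefficient of variation between libraries was 65.3%.

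The mean of HY5 in each regime was estimated from the deposited SEs, a step chosen after the data had been seen. The less a regime was expressed, the more counting noise it added to the SE, so the small difference of the squared SEs of the 2 tables sets the level. The estimate was 845 normalised counts for SQH and 306 for SQL, and 135 for FLH and 860 for FLL. The same step was tried in 21 checks on 16 genes whose means were known. Their outer regimes, which are SQH and FLL for HY5, differed by less than 0.1 on the log2 scale. HY5 itself differed by 0.02, and the error at so small a difference was not checked apart. There it returned 0.952 to 1.05 times the known level between the 10th and 90th percentile, and 0.947 to 1.05 times with factors fitted without those 16 genes. Moving HY5 over the first range gave 213 to 393 in SQL. The estimate rests on fitted scaling factors of the regimes, which lie between 0.986 and 1.02. With the factors set equal it became 301 for SQH and 1490 for SQL, and 48.3 for FLH and 306 for FLL, which turns the order of SQH and SQL, and on the 21 checks equal factors returned 0.495 to 1.90 times the known level. The SQL level is the least certain of the 4. For the other genes, estimates with outer regimes less than 0.1 apart were withheld as unreliable, and HY5 was kept as an exception.

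With the fitted factors, the unlisted comparisons of HY5 were estimated too. SQH exceeded SQL by 1.47 on the log2 scale with an SE of 0.77, where 2.43 was needed for a call. SQL was below FLL, with a log2 difference of -1.49 and an SE of 0.77, where 2.20 was needed. These SEs take the estimated SQL level as known. Moving HY5 over the range of the checks gave 1.03 to 2.06 for SQH minus SQL and -2.09 to -1.06 for SQL minus FLL. Neither difference is a called change. The called differences of HY5 are those of FLH from SQH and from FLL, and SQH and FLL did not differ beyond their error. The estimates put SQL above FLH and below SQH and FLL, but HY5 was not called in either comparison that holds SQL. With equal factors SQL came out highest, so its place in the order is not settled.

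**Figure D3:**
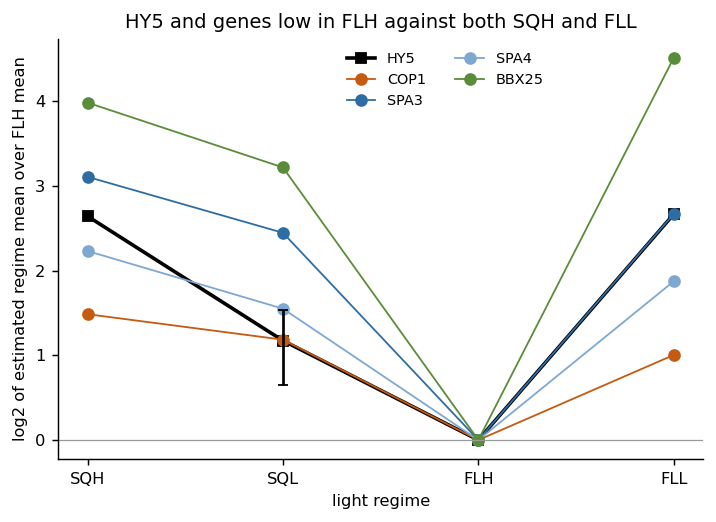
Estimated regime means of HY5 (black squares) and of COP1, SPA3, SPA4 and BBX25 (coloured circles), each as the log2 of the regime mean over that gene's own FLH mean, against the 4 light regimes. SQH and FLL values restate the listed fold changes, SQL values are estimates, and the bar on HY5 in SQL spans 213 to 393 normalised counts. All 5 genes are lowest in FLH with the fitted scaling factors. Each was already called low in FLH in the 2 comparisons that hold FLH, so only the place of SQL was not fixed by the choice of genes. Of the HY5 partners not drawn, BBX20 and BBX22 had their highest means in FLH, at 96.6 and 2579 normalised counts. BBX24, also not drawn, had its lowest there, at 6590.

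HYH, which acts partly in place of HY5, had a mean normalised count of 1919 and moved in the direction of HY5 in SQH with FLH. It was 11.1-fold higher in SQH, with a 95% interval of 2.29 to 53.7, a log2 fold change of 3.47 ± 1.16 (SE) and an adjusted p of 0.0179 in the authors' DESeq2 table. Its SE was among the largest 5.65% of the table and implies a coefficient of variation between libraries of 98.6%. It ranked 3294 of 4635 by p.

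HYH was not listed in FLH with FLL, where HY5 was. At the SE of HYH a log2 difference of 3.27 was needed there, more than the 2.67 by which HY5 differed, so the tables do not show that the 2 genes behaved differently. In SQH with SQL 3.68 was needed and in SQL with FLL 3.33. Under the bounds used for PIF4, the mean of HYH lay between 718 and 6519 normalised counts in SQH and between 64.8 and 588 in FLH.

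The 4 called genes do not overlap another annotated gene in TAIR10.1. PIF4 lies at chr2:17886101-17889087 on the plus strand, HFR1 at chr1:465616-467880 on the minus strand, HY5 at chr5:3593335-3595073 on the minus strand and HYH at chr3:6023844-6024710 on the plus strand. No gene of the 10 was listed in both SQH with FLH and SQL with FLL, or in both SQH with SQL and FLH with FLL. Whether the effect of the light pattern on PIF4, HFR1, HY5 or HYH differed between high and low intensity was therefore not tested.

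The genes most like HY5 were sought among 964 genes listed in both of its tables whose mean normalised count was 100 or more, by the root mean square difference of the log2 fold changes over the 2 tables. IAGLU (AT4G15550), which encodes an indole-3-acetate glucosyltransferase, came first at 0.03, with -2.70 in FLH with FLL and 2.65 in SQH with FLH. AAH (AT4G20070), allantoate amidohydrolase of purine breakdown, followed at 0.06, with -2.74 and 2.59. The likeness rests on 2 values per gene, with the FLH libraries in both.

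The other genes of the pathway were followed as 9 lists of 85 genes. Of these, 39 were called in SQH with FLH, which is 45.9% beside the 22.2% of all genes tested, 17 of them higher in SQH and 22 higher in FLH. FLH with FLL called 21 (24.7%), of which 16 were higher in FLL, SQL with FLL called 12 (14.1%), and SQH with SQL called 4 (4.71%). The median absolute log2 fold change of the called list genes in SQH with FLH was 2.40, beside 1.80 for all called genes. In total 37 of the 85 were in no table. The lists were written with earlier results of these data known, so these counts describe them only.

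**Figure D4:**
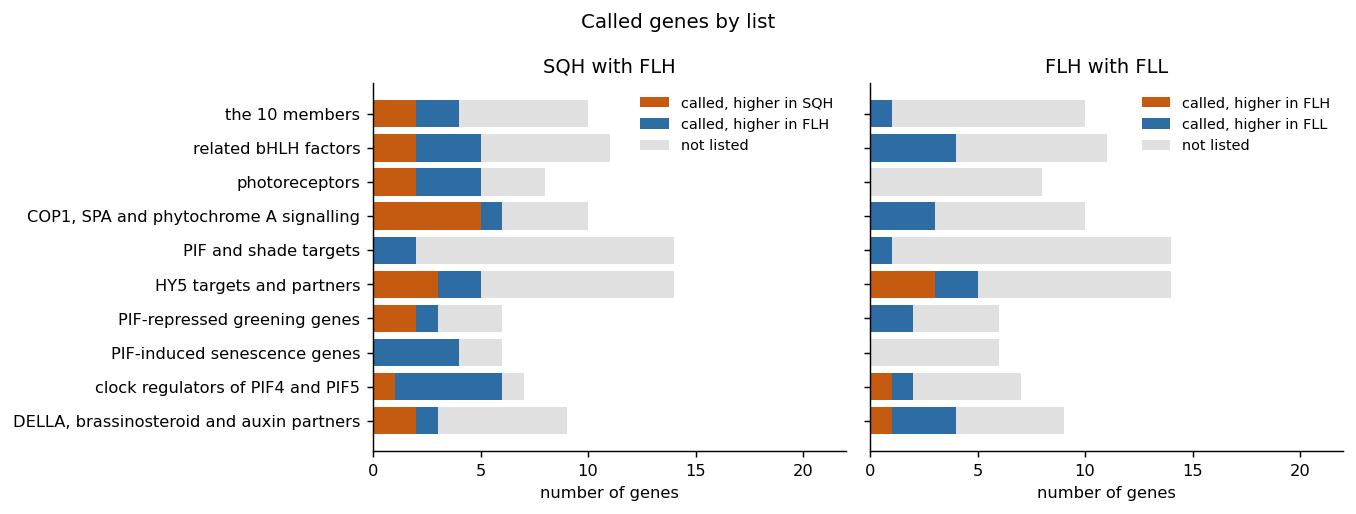
Number of genes called in each list in SQH with FLH (left) and FLH with FLL (right), split by direction, with genes not listed in grey. Among the 10 genes described here 4 and 1 were called, and in the COP1, SPA and phytochrome A list 6 and 3 of 10.

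Most called genes of the list that holds the COP1 and SPA regulators of HY5 protein were low in FLH. Of 10 genes for COP1, SPA and phytochrome A signalling, 5 were higher in SQH and 1 was higher in FLH in SQH with FLH, and 3 were called in FLH with FLL, all higher in FLL. COP1, the ubiquitin ligase subunit that marks HY5 for degradation, was higher in SQH than in FLH by 1.49 ± 0.30 (SE) on the log2 scale with an adjusted p of 1.94e-05. SPA3, a partner of COP1, was higher in SQH by 3.11 ± 0.67 with an adjusted p of 8.93e-05 and differed by -2.67 ± 0.67 in FLH with FLL with an adjusted p of 0.00256. SPA4 differed by -1.87 ± 0.48 in FLH with FLL with an adjusted p of 0.00363. SPA3 overlaps a neighbouring gene by 135 bases and SPA4 one by 3 bases. Among all genes called in each comparison taken by itself, a lower level in FLH was frequent but the less frequent direction. These shares do not hold for genes called in both comparisons. In SQH with FLH 2106 of 4635 were higher in SQH, and in FLH with FLL 940 of 2063 were higher in FLL. The list was not tested against these shares, and no protein was measured.

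Of 14 HY5 targets and partners, 5 were called in SQH with FLH (3 higher in SQH) and 5 in FLH with FLL (3 higher in FLH), so they did not share one direction. BBX25, a B-box protein that pairs with HY5, followed its direction, with 3.98 ± 0.77 (SE) in SQH with FLH and -4.51 ± 0.77 in FLH with FLL, at adjusted p of 8.27e-06 and 9.63e-07 from DESeq2. BBX20, a B-box partner that HY5 needs for full activity, went the other way in both, with -2.96 ± 0.70 and 2.94 ± 0.70, and it was the only list gene called in all 4 tables. Its mean normalised count was only 45.0. MYB12, which activates flavonol synthesis, was higher in SQL than in FLL by 3.80 ± 0.80, with an adjusted p of 0.000481 from DESeq2. The mean normalised count of MYB12 was only 26.4. ELIP2, an early light-induced protein of the chloroplast, was higher in SQL than in FLL by 9.07 ± 2.31, with an adjusted p of 0.00525.

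Of 14 PIF and shade targets, 2 were called in SQH with FLH, both higher in FLH, and 1 in each other comparison. HAT1, a homeodomain-leucine zipper gene of the family of ATHB2, was lower in SQH than in FLH by a log2 fold change of -3.31 ± 0.57 (SE) and lower in SQH than in SQL by -3.55 ± 0.57, at adjusted p of 3.6e-07 and 3.16e-07. HAT3, of the same family, was -1.15 ± 0.44 in SQH with FLH with an adjusted p of 0.0422. PKS4, a phytochrome substrate, was higher in FLL than in FLH and SQL, with -1.94 ± 0.67 and -2.20 ± 0.67 and adjusted p of 0.0419 and 0.0227. The auxin synthesis genes YUC2, YUC5, YUC8 and YUC9 and the auxin-response genes IAA19 and IAA29, which PIFs activate in shade, were not listed.

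Of 11 related bHLH factors, 5 were called in SQH with FLH, 2 higher in SQH and 3 higher in FLH. PAR1, which like HFR1 holds PIFs back in shade, differed in the direction of HFR1, by -4.28 ± 0.98 (SE) in SQH with FLH with an adjusted p of 0.000223. HBI1, a growth-promoting factor, was low in SQH against both FLH (-2.53 ± 0.47) and SQL (-2.55 ± 0.47), at adjusted p of 3.07e-06 and 2.22e-05 from DESeq2. In FLH with FLL 4 were called, all higher in FLL, among them PRE1 at -2.65 ± 0.67 and KDR at -1.72 ± 0.53, small factors that cannot bind DNA and pair with other bHLH proteins, KDR with HFR1 among them, with adjusted p of 0.0026 and 0.0213. IBH1, a repressor of that group, was the gene called in SQL with FLL, at -1.83 ± 0.52 with an adjusted p of 0.0146. PIF8 (AT4G00050), another PIF gene, was chosen for mention after its values were seen, and it was 3.40 in SQH with FLH and -2.67 in FLH with FLL, at adjusted p of 0.00103 and 0.0267.

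Of 8 photoreceptor genes, 5 were called in SQH with FLH, 2 higher in SQH and 3 higher in FLH, and 0 in FLH with FLL, where the largest p listed was 0.00494. PHYE, a phytochrome that acts beside PHYB, was higher in SQH than in FLH by 1.12 ± 0.20 (SE) and than in SQL by 0.93 ± 0.20, at adjusted p of 1.92e-06 and 0.000734. CRY2, a blue-light receptor that is degraded in strong blue light, was higher in FLH, at -2.14 ± 0.45 with an adjusted p of 5.65e-05. PHYA, the far-red receptor whose transcript is lowered by light, was higher in FLL than in SQL, at -2.20 ± 0.72 with an adjusted p of 0.0368.

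Of 7 clock genes that act on PIF4 and PIF5, 6 were called in SQH with FLH, 5 of them higher in FLH. LUX, a member with ELF3 and ELF4 of the evening complex that represses PIF4, was higher in FLH by a log2 fold change of -4.74 ± 0.89 (SE), and TOC1, an evening repressor, by -4.45 ± 0.72, at adjusted p of 4.49e-06 and 7.08e-08. PIF4 was also higher in FLH, and a link between these transcripts was not tested. TOC1 was also higher in FLH than in FLL, by 2.20 ± 0.72, and the morning gene PRR9 was lower, at -3.25 ± 0.62, with adjusted p of 0.0306 and 1.81e-05. In SQL with FLL 3 of the 7 were called, all higher in FLL, among them ELF4 at -4.77 ± 1.13 and ELF3 at -2.33 ± 0.70, with adjusted p of 0.00216 and 0.0225. LUX overlaps a neighbouring gene by 1507 bases and ELF3 overlaps 2 by 183 and 24 bases. The study describes leaf harvest for DNA around midday, in the fixed order SQH, SQL, FLH and FLL, and all tissue as taken within a few minutes. For the RNA it gives no hour, so the light level at that harvest is not known here. The part of harvest time, order or light level in these differences was not tested.

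**Figure D5:**
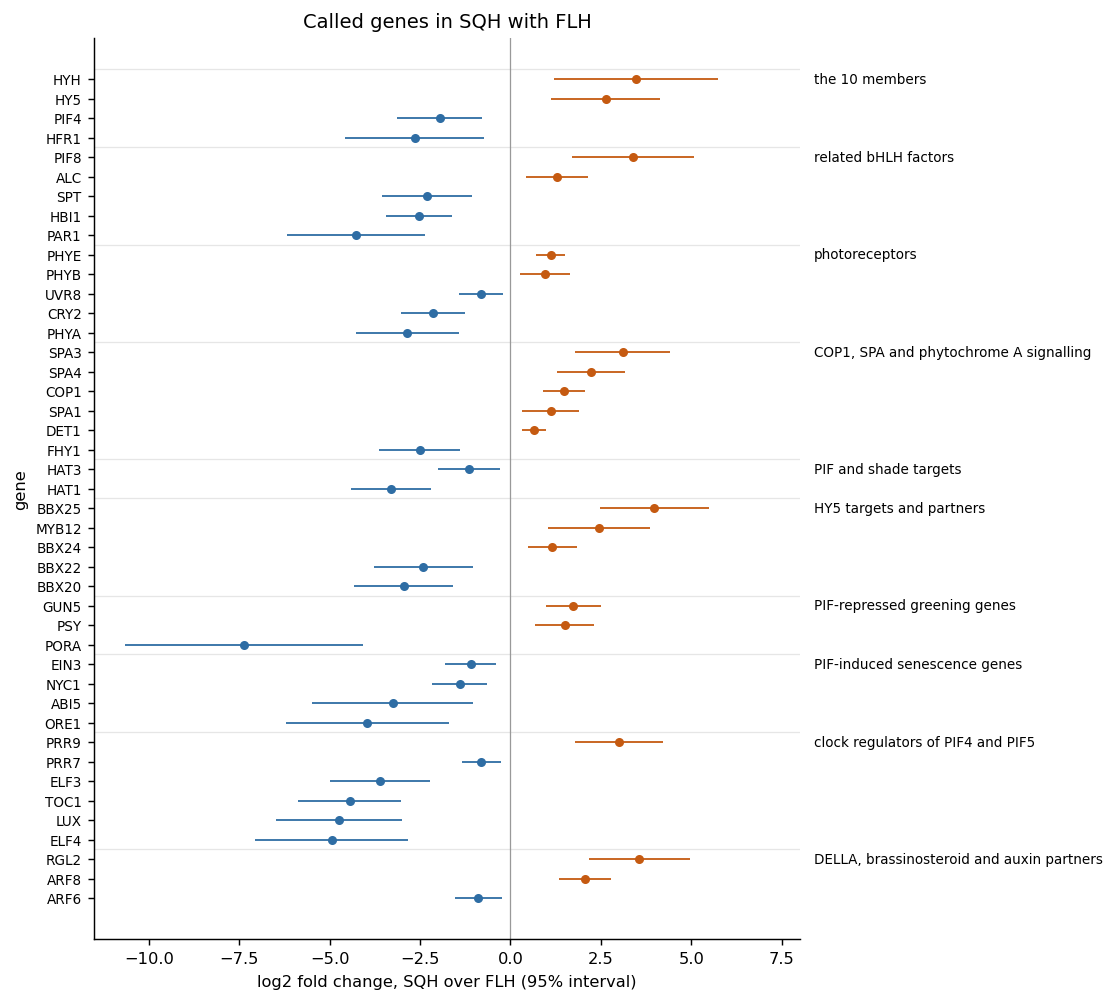
Log2 fold changes, SQH over FLH, with 95% intervals for the 4 called genes of the 10 and the 39 called genes of the other lists, grouped by list (orange, higher in SQH, and blue, higher in FLH). HYH and HFR1 have wide intervals beside COP1 or PHYE, and PORA lies farthest from 0.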

How the data were processed

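Leaf RNA-seq of 12 libraries in 4 light regimes, 3 each by title, was analysed from the authors' 4 tables. Per the submitters' processing notes, reads were aligned to TAIR10 with HISAT2, handled with SAMtools, counted with featureCounts and tested with DESeq2 (versions not given in the sources used here). Each table lists genes with an adjusted p no larger than 0.05 and a log2 fold change of 0.5 or more in either direction. The authors' columns hold a signal (size-factor normalised counts averaged over the 12 libraries), a log2 fold change and its SE on the log2 scale, the Wald score, and the p-value with its Benjamini-Hochberg adjusted p-value. They are results of the authors' own comparisons, used because these tables hold nothing else. No depth or value per library was used. The p-values come from Wald tests, the fold change over its SE, in the authors' fit of all 12 libraries. They and the implied coefficients of variation therefore do not describe the 3 libraries of a single regime.

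A positive fold change means higher in the first-named regime. This was settled from the SEs of 211 genes in at least 3 tables, because the less expressed regime has the larger error. Fitted scaling factors of the counting noise were 0.986 to 1.02, and with every fold change turned they came out below 0, from -2.78 to -0.63, which no count can give. The labels in the study's plots and its text on MCCA take the sign the other way, while its text on transposable elements reads it as here. Adjusted p divided by p gave the number of genes tested. The 95% intervals use a normal error. The coefficient of variation is the SE times the natural logarithm of 2 times the square root of 3 over 2. The size needed for a call is a gene's SE times the smallest absolute Wald statistic of the table. Regime means of genes in fewer than 3 tables were estimated from the SEs. A repeated identifier (2 rows) was set aside in look-ups by gene. An estimate for ELIP2 fell below 0 and was dropped. Scripts were tested on simulated data and run with Python 3.11.15, numpy 2.4.6, pandas 2.3.3 and scipy 1.17.1.

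The members and the lists were chosen with earlier results of these data known. Named are all 10 genes, per list and comparison the 2 called genes with the smallest p, and for a gene in at least 2 tables the 2 genes nearest in fold change. Alternatives were an adjusted p of 0.01, Bonferroni adjustment, a log2 fold change of 1, an interval beyond 0.5 and a mean normalised count of at least 100. T/G-box, GATTCG and GATACG searches were added after the data were seen. The planned comparison of protein sequences was not made here.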

Additional observations from a re-analysis of the deposited data

Results flagged for a closer look

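BBX20, a B-box partner of HY5, was singled out because its response to one light variable went in opposite directions at the levels of the other. The pattern effect was -2.96 on the log2 scale at high intensity (SQH with FLH) and 2.22 at low intensity (SQL with FLL), a difference of -5.17 with an SE of 0.99 and an adjusted p of 2.01e-06 in a two-sided z test over 641 genes in both tables, of which 117 passed. The intensity effect was -2.23 under square light and 2.94 under fluctuating light, again a difference of -5.17, with an adjusted p of 3.1e-07 over 141 genes in both tables, of which 107 passed. These 2 tests are one contrast of the 4 regimes, and a gene called with opposite signs in both tables is almost certain to pass. The implied means were 12.4 normalised counts for SQH and 58.5 for SQL, and 96.6 for FLH and 12.6 for FLL. The other 6 list genes in both tables of the pattern comparison, PHYA, ARF6, ELF3, ELF4, MYB12 and LUX, had adjusted p of 0.413 to 0.981. None of the 10 genes described was in both tables of either test.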

How the results depend on the processing

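At an adjusted p of at most 0.01, PIF4 and HY5 kept their calls in SQH with FLH, which left 2 of the 10 genes there, and 0 were left in FLH with FLL, since the HY5 call was lost. Under Bonferroni adjustment over all genes tested 0 were left in either, so 5 of the 5 calls were lost. All 5 were kept with a log2 fold change of 1 or more in either direction, with the 95% interval beyond 0.5, and at a mean normalised count of at least 100. Alternatives for the lists and for the HY5 estimate were added after the data were seen. At 0.01 the called list genes numbered 9 in FLH with FLL and 3 in SQL with FLL, and with Bonferroni 2 in SQH with SQL, 5 in FLH with FLL, 1 in SQL with FLL and 12 in SQH with FLH. With equal regime factors the HY5 means were 301 for SQH and 1490 for SQL, and 48.3 for FLH and 306 for FLL, since HY5 was nearly equal in SQH and FLL and its estimate then turns on small differences of the factors. With factors from genes with a mean of at least 100 they were 842, 311, 135 and 857, and with factors fitted without the genes of the check 845, 306, 135 and 859. The meaning of the sign of a fold change was the same in 439 of 439 checks and in 324 of 324 at a mean of at least 100. No paired analysis was possible because the tables hold no values per library, and for the same reason no library could be left out in turn and no model refitted. The alternatives for the interaction tests gave no value for any of the 10 genes.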

Other observations

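Of 6 genes of greening, 2 were higher in SQH and 1 was higher in FLH in SQH with FLH. GUN5, a subunit of the chelatase of chlorophyll synthesis, differed by 1.74 ± 0.38 (SE) on the log2 scale in SQH with FLH and by -1.83 ± 0.38 in FLH with FLL, at adjusted p of 0.000124 and 0.000154 in the authors' DESeq2 tables, so that it was lower in FLH. PSY, which starts carotenoid synthesis, was -1.28 ± 0.42 in FLH with FLL with an adjusted p of 0.0288. PORA, the protochlorophyllide reductase of dark-grown seedlings, was higher in FLH than in SQH, at -7.36 ± 1.68 with an adjusted p of 0.000221. Of 6 senescence genes that PIFs induce, 4 were called in SQH with FLH, all higher in FLH, and none elsewhere. Among them NYC1, a chlorophyll b reductase, was at -1.40 ± 0.39 and ORE1, a NAC factor of leaf ageing, at -3.95 ± 1.15, with adjusted p of 0.00347 and 0.0054. The difference between comparisons was not tested.

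Of 9 DELLA, brassinosteroid and auxin partners of the PIFs, 3 were called in SQH with FLH, 4 in FLH with FLL and 3 in SQL with FLL. RGL2, a DELLA protein that restrains PIFs, was 3.57 ± 0.71 (SE) in SQH with FLH and -3.51 ± 0.71 in FLH with FLL, at adjusted p of 1.83e-05 and 7.85e-05. ARF8, an auxin response factor, was 2.06 ± 0.36 and -1.72 ± 0.36, at adjusted p of 9.37e-07 and 0.000175. Both were low in FLH in comparisons that share the FLH libraries. In SQL with FLL, RGL1 was -1.35 ± 0.40 and ARF6 -1.12 ± 0.33, both higher in FLL, at adjusted p of 0.0194 and 0.0205.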
